A study of Sus scrofa with 6 samples.

Results

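Fast fibre contractile genes encode the light chains, thin filament proteins, thick filament binding proteins and Z-disc proteins of the sarcomere of fast muscle fibres. They were read as a group of 10 symbols: MYL1, MYL11, TNNC2, TNNI2, TNNT3, TPM1, ACTN3, MYBPC2, MYBPC1 and MYOZ1. A gene belonged to the group when the Ensembl pig ID of its row carries a listed symbol today. By that rule 7 of the 10 had a row among the 25322 genes of the table, and all 7 passed the filter on low values. TNNI2 and TNNT3, the inhibitory and tropomyosin-binding troponins of fast fibres, and ACTN3, the fast Z-disc actinin, matched no row and were not analysed here. The values come from RNA sequencing of longissimus dorsi, a long back muscle, in 6 healthy female Tibetan pigs.

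The low altitude group was 3 Tibetan pigs housed under experimental conditions with daily feeding on the Chengdu plain, whose average altitude is 500 m. Their line descends from highland animals and had been in the lowland for several generations. The high altitude group was 3 Tibetan pigs that ranged freely in the Tibetan highland, at an average of 4000 m. All 6 animals share breed, sex and muscle, and no treatment or transgene is labelled in either group. No age, time of sampling or feeding state is given in the sources used here. Altitude, housing, diet and the history of the line differ together between the groups and cannot be told apart. Each library is 1 animal. In whole muscle, fewer fibres of a type and less RNA per fibre cannot be told apart either.

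Each sarcomere is built of thick myosin filaments and thin actin filaments anchored in Z-discs, and each fibre type uses its own set of protein isoforms. In skeletal muscle, calcium binds troponin C, tropomyosin shifts on the thin filament, and myosin heads, steadied by their light chains, can pull. Fast fibres contract quickly and rely much on glycolysis, slow fibres resist fatigue and rely on oxidation, and the back muscle of pigs is known as a mainly fast muscle. Myosin-binding protein C sits on the thick filament and tunes how the heads meet actin.

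Levels are FPKM, fragments divided by the length of the gene and by the mapped total, so that genes can be compared per length. FPKM totals per library were 506611 to 566907 at low altitude and 526368 to 571855 at high altitude, and 9683 to 9960 and 9278 to 10100 genes reached an FPKM of 1. The absolute depth is unknown, since read totals cannot be read from FPKM. Relative depth was estimated from nonzero values under an FPKM of 0.15 in both libraries of a pair. The most common ratio of such values, averaged over pairs, gave 0.855 to 1.00 at low altitude and 0.829 to 1.27 at high altitude. This assumes that the most common ratio comes from equal fragment counts. The muscle markers NEB, DES, PYGM and CASQ1 were all present, with summed FPKM of 7342 to 7968 at low altitude and 7063 to 8483 at high altitude. Of 4 heart markers with a row, NPPB was listed at 0 in all 6 libraries. The means of the others were 661 FPKM for MYH6, 4.14 for TNNT2 and 0.0264 for MYBPC3. The skeletal actin ACTA1 was listed at 35618 in low altitude library 3 and 34168 in high altitude library 2 and at 0 in the other 4, so an exact 0 in this table need not mean absence, and no member was listed at 0.

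High altitude library 1 stood apart in its slow fibre genes. The summed FPKM of the 6 measured slow contractile genes was 3191, 4788 and 3179 in the low altitude libraries, against 11464.5, 2765 and 7167 in the high altitude libraries. Its summed markers of fibroblasts and matrix were the lowest, 246, against 688 to 1067.5 at low altitude and 846 and 958.5 in the other high altitude libraries. Beside the members' estimates, the slow gene results and the spread within groups, the values without it are given.

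The 7 fast genes were among the most abundant transcripts of this muscle at both altitudes, and together they held a similar share of the FPKM total in every animal. Their share was 9.89 ± 0.511% at low altitude and 9.52 ± 0.562% at high altitude (SD, n = 3 each). The libraries spanned 9.35 to 10.4% and 8.87 to 9.85%, and the groups overlapped. ACTA1 counts toward the total only in low altitude library 3 and high altitude library 2, which lowers their shares. Of the total without mitochondrially encoded genes, to which the same applies, the share was 13.9 ± 1.20% at low altitude and 13.9 ± 0.678% at high altitude. By mean FPKM over the 6 libraries MYL11 ranked 6 of 25322 genes, TNNC2 8, MYL1 10, TPM1 14, MYOZ1 35, MYBPC2 45 and MYBPC1 101.

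None of the 7 passed the test between altitudes. In limma with Benjamini-Hochberg adjustment over 10005 tested genes, 0 of 7 members had an adjusted p under 0.05, where 23 of all tested genes, 0.230%, did (0.160% higher and 0.0700% lower at low altitude). At an unadjusted p under 0.05 there was 1 member, MYBPC2, where 9.42% of all tested genes were. That count was 0 with median-of-ratios scaling, with the replicate block and without low altitude library 2 or 3 or high altitude library 3. With quantile normalization it was 3, for MYBPC2, TPM1 and TNNC2. The log2 fold change from the fit, low over high altitude on the log2(FPKM + 1) scale, had a median of −0.069 over the 7 members and 0.041 over all tested genes. It was above 0 in 3 members and below 0 in 4, where 57.7% of all tested genes were above 0 and 42.3% below. All 18 other settings of the analysis also gave 0 of 7.

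**Figure D1:**
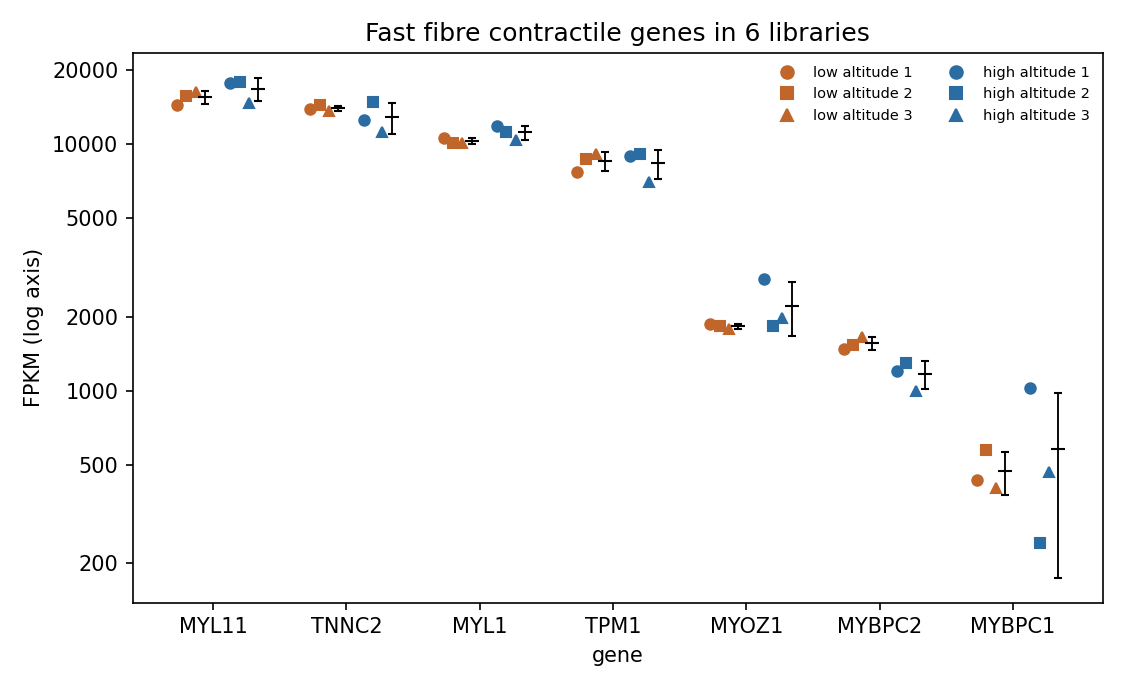
FPKM on a log axis of the 7 measured fast fibre genes in each of 6 libraries, low altitude left and high altitude right of each pair, with group mean ± SD (n = 3) in black. The groups overlap in every gene except MYBPC2, and MYBPC1 has the widest spread, 242 to 1028 in the high altitude libraries.

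The myosin light chains clasp the lever arm of the myosin head. MYL11 encodes the regulatory light chain of fast fibres and was the most abundant member. It had 14389.6, 15631 and 16308 FPKM in the low altitude libraries, against 17700.4, 17808 and 14642 in the high altitude libraries. High altitude libraries 1 and 2 lay above all low altitude libraries and library 3 among them. MYL11 averaged 15443 ± 973 FPKM at low altitude and 16717 ± 1798 at high altitude, with a log2 fold change of −0.11 (SE 0.13, limma, Benjamini-Hochberg adjusted p = 0.829). The estimate was −0.066, −0.062 and −0.20 without high altitude library 1, 2 or 3, and −0.060 without low altitude library 1.

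MYL1 encodes the essential, or alkali, light chain of fast fibres. It had 10597, 10108 and 10100.3 FPKM in the low altitude libraries, against 11850.2, 11182 and 10408 in the high altitude libraries. The groups overlapped by 1 animal each, and MYL1 had the narrowest spread of the members, with 1.17-fold between its lowest and highest library. Its means were 10269 ± 285 FPKM at low altitude and 11147 ± 722 at high altitude, and its log2 fold change was −0.12 (SE 0.11, limma, Benjamini-Hochberg adjusted p = 0.779), against −0.072 without high altitude library 1. Each MYL1 value sums the isoforms of the gene, since the table has 1 row per gene.

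The ratio of the pair of light chains held close across animals. MYL1 stood at 0.736, 0.647 and 0.619 of MYL11 in the low altitude libraries, against 0.669, 0.628 and 0.711 in the high altitude libraries. A ratio within a library does not depend on how libraries are scaled to each other, and here the groups overlapped. Under quantile normalization, which forces 1 distribution on all libraries, both light chains had estimates above 0 (0.095 for MYL1 and 0.075 for MYL11).

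On the thin filament, TNNC2 encodes the calcium sensor of fast fibre troponin. It had 13918, 14340.4 and 13618 FPKM in the low altitude libraries, against 12501, 14823 and 11186 in the high altitude libraries. The low altitude libraries lay close together inside the range of the high altitude libraries. TNNC2 averaged 13959 ± 363 FPKM at low altitude and 12837 ± 1842 at high altitude, and the log2 fold change was 0.13 (SE 0.13, limma, Benjamini-Hochberg adjusted p = 0.801). It was 0.12 without high altitude library 1, 0.24 without library 2 of that group and 0.036 without library 3. With quantile normalization the estimate was largest, at 0.29 (limma, Benjamini-Hochberg adjusted p = 0.454).

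TPM1 encodes the alpha-tropomyosin that lies along the thin filament in fast fibres and is also made in heart and smooth muscle. It had 7722, 8729.95 and 9128 FPKM in the low altitude libraries, against 8919, 9091 and 7018 in the high altitude libraries. Its groups overlapped almost wholly, with means of 8527 ± 725 at low altitude and 8343 ± 1150.4 at high altitude. The log2 fold change was 0.038 (SE 0.15, limma, Benjamini-Hochberg adjusted p = 0.960). Its sign turned under median-of-ratios scaling (−0.018), without low altitude library 3 (−0.013) and without high altitude library 3 (−0.082). The estimate was 0.091 without high altitude library 1. It was largest with quantile normalization, at 0.28 (limma, Benjamini-Hochberg adjusted p = 0.445). The smooth muscle marker ACTA2 was at 39.3 ± 2.36 FPKM at low altitude and 36.4 ± 10.1 at high altitude, far below TPM1. How reads were divided between TPM1 and the similar tropomyosin genes is not stated in the sources used here.

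For these 4 abundant genes the 95% intervals of the fitted fold were narrow. They ran from 0.755 to 1.14 for MYL11, from 0.773 to 1.10 for MYL1, from 0.882 to 1.36 for TNNC2 and from 0.810 to 1.30 for TPM1, low over high altitude. A 2-fold difference in either direction lies outside each of them.

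At the Z-disc, MYOZ1 encodes a calsarcin that binds actinin and calcineurin, and that is known from fast fibres. It had 1866, 1825 and 1778 FPKM in the low altitude libraries, against 2842, 1827 and 1978 in the high altitude libraries. High altitude library 1 alone was well above the others, and high altitude library 2 lay within the low altitude range. The means were 1823 ± 43.8 FPKM at low altitude and 2216 ± 548 at high altitude, with a log2 fold change of −0.25 (SE 0.18, limma, Benjamini-Hochberg adjusted p = 0.707). Without high altitude library 1 the estimate for MYOZ1 was −0.061.

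The thick filament gene MYBPC2 was the 1 member whose groups did not overlap. MYBPC2 encodes the fast isoform of myosin-binding protein C. It had 1482, 1528 and 1658 FPKM in the low altitude libraries, against 1201, 1296 and 1002 in the high altitude libraries. Every low altitude library lay above every high altitude library, as it did in 11.3% of all tested genes, and in either direction groups did not overlap in 16.1%. MYBPC2 averaged 1556 ± 91.1 FPKM at low altitude and 1166 ± 150.3 at high altitude, 1.33-fold higher at low altitude.

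The difference in MYBPC2 did not pass the threshold over all genes. Its log2 fold change was 0.42 (SE 0.14, limma, unadjusted p = 0.0218, Benjamini-Hochberg adjusted p = 0.431), and the 95% interval of the fold was 1.06 to 1.70. By size of the log2 fold change MYBPC2 ranked 1324 of the 10005 tested genes. The estimate was above 0 in all 18 other settings, from 0.32 to 0.54, with an adjusted p of 0.286 to 0.867 (limma, Benjamini-Hochberg). It was 0.45 without high altitude library 1.

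Measured against the other members, MYBPC2 again set the groups apart. MYL11 stood at 9.71, 10.2 and 9.84 times MYBPC2 in the low altitude libraries, against 14.7, 13.7 and 14.6 times in the high altitude libraries. The ratio of MYBPC2 to another member did not overlap between groups for 5 of the 6 others (MYL11, MYL1, TNNC2, TPM1 and MYOZ1), each time higher at low altitude, and it overlapped for MYBPC1. This reading was chosen after the values of MYBPC2 were seen, the ratios all share MYBPC2, and no test was made of them. Against each of the other tested genes in turn, the ratio of MYBPC2 did not overlap and was higher at low altitude for 34.0%.

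**Figure D2:**
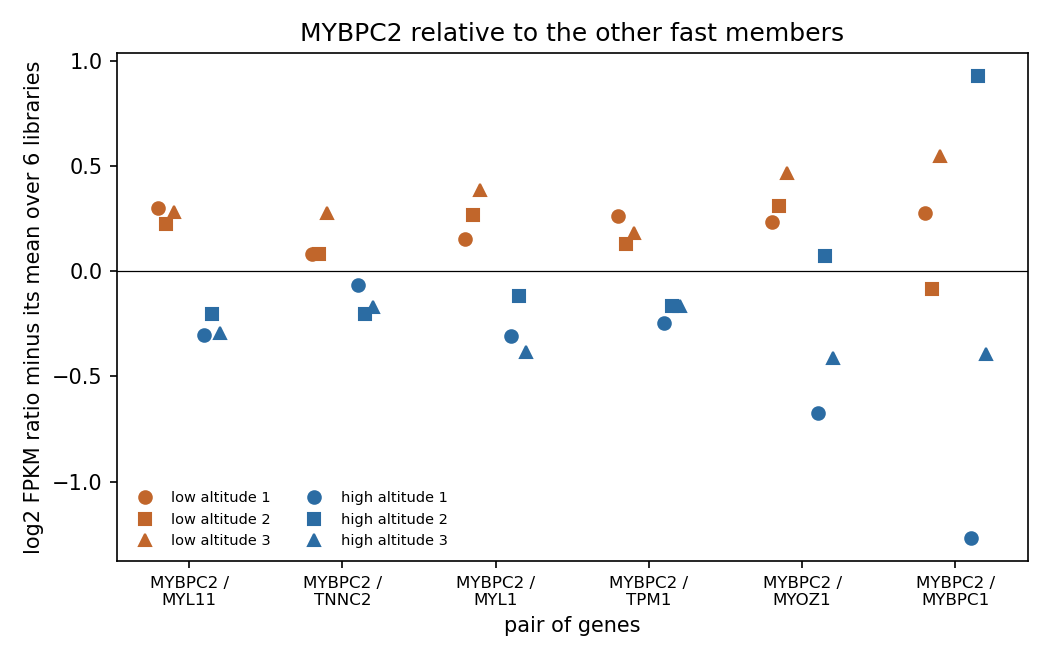
Log2 FPKM ratio of MYBPC2 to each of the 6 other members, less its mean over the 6 libraries, with low altitude libraries left and high altitude libraries right of each pair. All 3 low altitude libraries lie above all 3 high altitude libraries for every partner except MYBPC1.

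MYBPC1 encodes the isoform named for slow skeletal muscle, which is made in slow fibres and also in fast ones, so its place among fast fibre genes is not exclusive. It had 435, 577 and 403 FPKM in the low altitude libraries, against 1028, 242 and 468 in the high altitude libraries. The highest and the lowest value were both at high altitude, and the low altitude libraries lay between them. The means were 472 ± 92.4 FPKM at low altitude and 579.5 ± 405 at high altitude, with a log2 fold change of −0.069 (SE 0.48, limma, Benjamini-Hochberg adjusted p = 0.980). The 95% interval of the fold, 0.436 to 2.08, spans a 2-fold difference in both directions. Without high altitude library 1 the estimate for MYBPC1 was 0.47, and without high altitude library 2 it was −0.57.

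MYBPC1 and MYOZ1 varied across animals much as the slow fibre genes did, and most other members did not. Likeness was measured as the mean absolute difference between standardized log2 profiles over the 6 libraries, where 0 is the same shape. MYBPC1 lay 0.428 from the median profile of the slow genes and 0.860 from that of the other members, and MYOZ1 lay 0.404 and 0.921. MYL1 was about as near to either (0.735 and 0.771). MYL11 (0.976 and 0.475), TNNC2 (1.56 and 0.891), TPM1 (1.18 and 0.668) and MYBPC2 (1.51 and 1.08) were nearer to the other members. The distances rest on 6 libraries that share 1 outlying animal, and they are a description only.

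**Figure D3:**
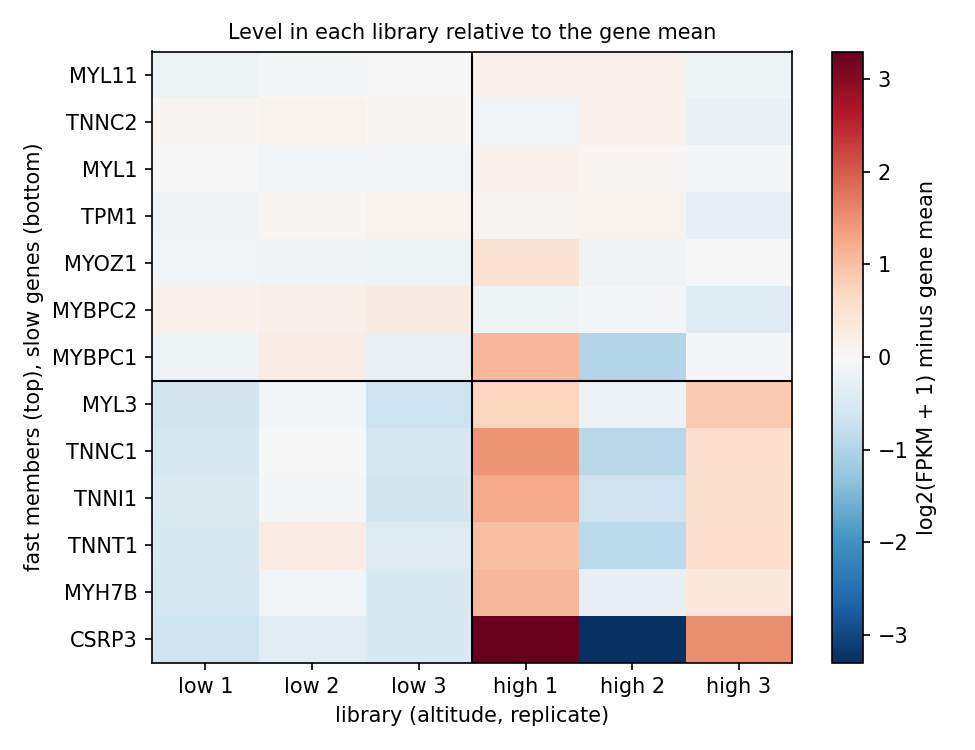
Log2(FPKM + 1) of each gene in each library less the gene's mean over the 6 libraries, for the 7 fast members above the line and the 6 slow genes below it. MYBPC1 and MYOZ1 share the high value of high altitude library 1 with the slow genes, at 1.11 and 0.51 above their means. The colour scale is set by the most variable gene, so MYOZ1 is pale there too. MYL11, TNNC2, MYL1, TPM1 and MYBPC2 stay pale throughout.

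The spread between animals was larger at high altitude in each of the 7 members, as it was in 65.3% of all tested genes. Without high altitude library 1, which leaves 2 libraries there, it was still larger in each of the 7, and in 43% of all tested genes. An SD of 2 values is only their difference, and the members are not independent of each other. MYL1, MYL11, TNNC2, TPM1 and MYBPC2 were all lower in high altitude library 3 than in high altitude library 2, and MYOZ1 and MYBPC1 were higher. No test was made of these spreads. The SD of log2 levels was 0.037 at low and 0.20 at high altitude for TNNC2, 0.035 and 0.34 for MYOZ1, and 0.27 and 1.04 for MYBPC1. Over all tested genes the median SD was 0.163 at low and 0.226 at high altitude. At high altitude the members split. MYL1, MYL11, TNNC2, TPM1 and MYBPC2 had an SD below that median there, MYOZ1 and MYBPC1 above it.

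The order of the members was the same in all 6 libraries, from MYL11 through TNNC2, MYL1, TPM1, MYOZ1 and MYBPC2 to MYBPC1. Within a library MYL11 was 1.03 to 1.42 times TNNC2, and TNNC2 1.05 to 1.42 times MYL1. Across libraries the ranges of these neighbours overlapped, as did those of MYBPC2 and MYBPC1, which stood 1.17 to 5.35 times apart. The ranges of MYL1 and TPM1, of TPM1 and MYOZ1, and of MYOZ1 and MYBPC2 did not overlap. By the median over libraries the largest step lay between TPM1 and MYOZ1, 4.46 times (3.14 to 5.13), though in high altitude library 2 that between MYBPC2 and MYBPC1 was larger.

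The 21 ratios between members differed in how steady they were across animals. The SD of the log2 ratio over the 6 libraries was 0.089 for MYL11 to TPM1 and 0.0999 for MYL1 to MYL11, and it reached 0.774 for MYBPC2 to MYBPC1. Groups did not overlap in 7 of these 21 ratios, 5 of which hold MYBPC2, where 17.4% of the ratios between any 2 tested genes did not overlap. Ratios that share a gene are not independent. The other 2 were MYL11 to TPM1 and MYL11 to TNNC2. MYL11 stood at 1.86, 1.79 and 1.79 times TPM1 in the low altitude libraries, against 1.99, 1.96 and 2.09 times in the high altitude libraries.

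The balance of fast to slow isoforms was compared within each library for the fast genes that have a slow counterpart in the table. Of 9 such pairs set out, 3 had both genes, and in each of the 3 the libraries of the 2 altitudes overlapped. MYL1 was 22.6, 15.03 and 23.0 times MYL3, the essential light chain of slow fibres, in the low altitude libraries, against 9.95, 17.8 and 8.05 times in the high altitude libraries. High altitude library 2 lay among the low altitude libraries, and the other high altitude libraries lay below them.

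TNNC2 was 11.4, 7.94 and 11.1 times TNNC1, the troponin C of slow fibres, in the low altitude libraries, against 2.56, 15.6 and 4.29 times in the high altitude libraries. MYBPC2 was 3.41, 2.65 and 4.11 times MYBPC1 in the low altitude libraries, against 1.17, 5.35 and 2.14 times in the high altitude libraries. In both pairs high altitude library 2 was the highest of the 6 and high altitude libraries 1 and 3 were the lowest.

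The mean log2 difference between fast and slow gene was 0.81 larger at low altitude for MYL1 and MYL3, 0.85 for TNNC2 and TNNC1 and 0.49 for MYBPC2 and MYBPC1. The two-sided exact permutation test over the 20 assignments of libraries to groups gave p = 0.2, 0.4 and 0.6, each 0.6 after Benjamini-Hochberg adjustment over 3 pairs, and the smallest p this design allows is 0.1. Without high altitude library 1 the differences were 0.73, 0.29 and −0.019.

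**Figure D4:**
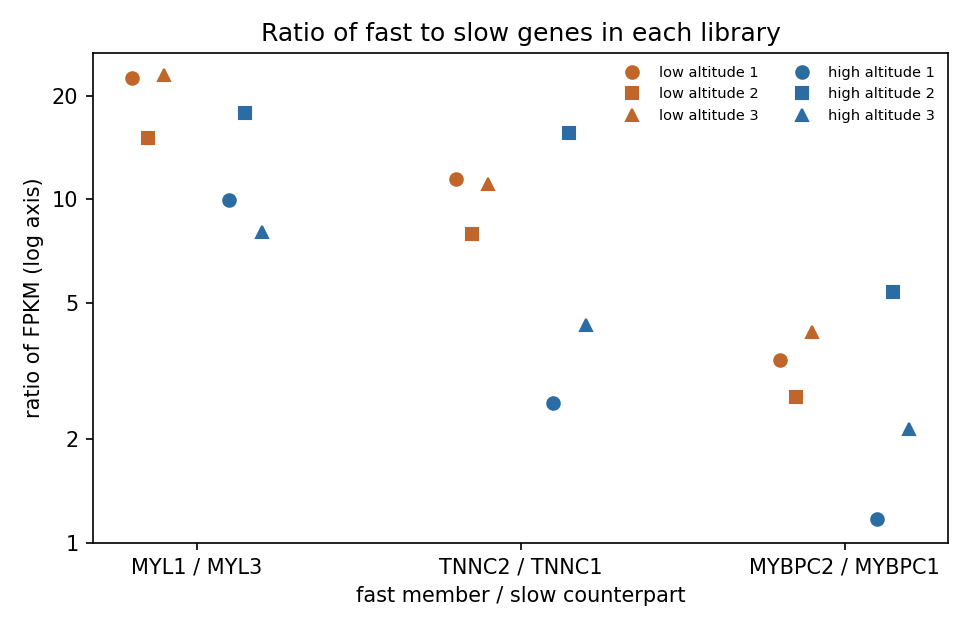
Ratio of FPKM of a fast gene to its slow counterpart in each library on a log axis, low altitude left and high altitude right of each pair. High altitude library 2 has ratios of 17.8, 15.6 and 5.35 and high altitude library 1 has 9.95, 2.56 and 1.17, so the high altitude animals span more than the low altitude animals.

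The pathway around these members showed no call either. Of 6 tested slow contractile genes 0 passed in either direction and all 6 had estimates below 0, with a median log2 fold change of −0.75, beside 0.041 over all tested genes. Without high altitude library 1, a setting added after the data were seen, 0 passed, 5 were below 0 and 1 above, and the median was −0.24. MYL3 was at 527 ± 127 FPKM at low altitude and 1037 ± 359 at high altitude, with a log2 fold change of −0.93 (limma, Benjamini-Hochberg adjusted p = 0.415), or −0.80 without high altitude library 1. TNNI1, the inhibitory troponin of slow fibres, was at 709 ± 149.6 and 1342 ± 799.8 (adjusted p = 0.667), TNNC1 at 1418 ± 337 and 2817 ± 1978 (0.715), and MYH7B, a myosin heavy chain, at 4.62 ± 1.05 and 9.12 ± 4.71 (0.539), in the same order and from the one limma fit. The log2 fold change without high altitude library 1 was −0.29 for TNNI1, −0.18 for TNNC1 and −0.41 for MYH7B.

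**Figure D5:**
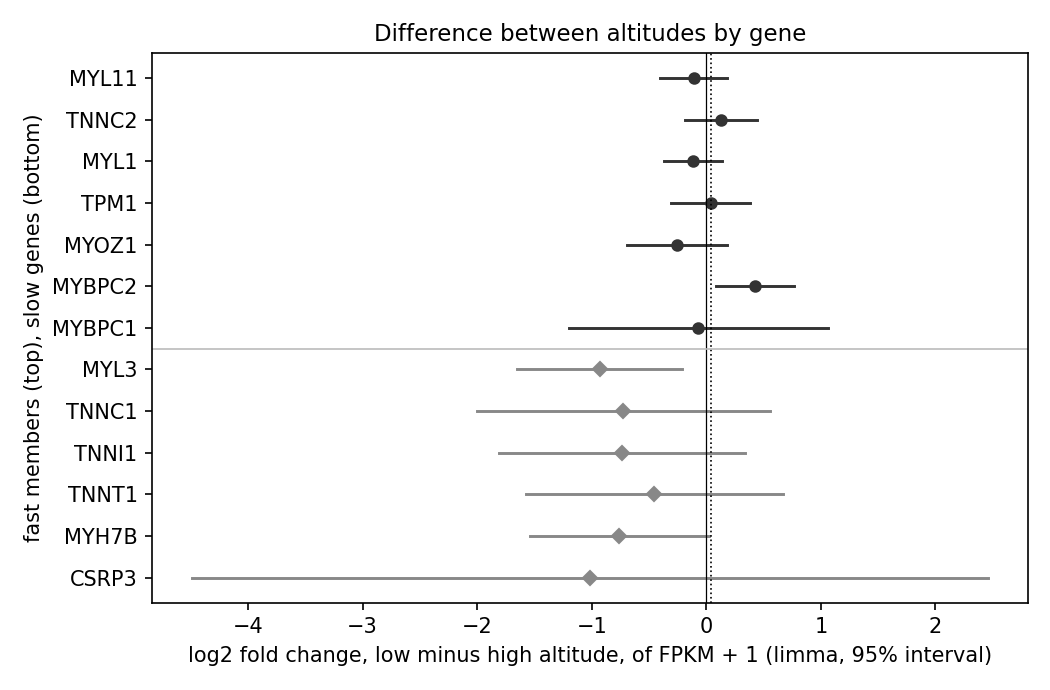
Log2 fold change, low minus high altitude, with its 95% interval from limma, for the 7 fast members (circles) and the 6 slow genes (diamonds); the dotted line is the median of all tested genes, 0.041. Among the members the interval of MYBPC2 alone lies wholly above 0, and that of MYBPC1 is the widest.

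Of 11 genes of fast myosin heavy chains and fast calcium handling, 6 had a row and were tested. None passed, 4 had estimates above 0 and 2 below, and the median log2 fold change was 0.11. The main adult fast myosins MYH1, MYH2 and MYH4 matched no row and were not analysed here. MYLK2, the kinase that phosphorylates the fast regulatory light chain, was at 230.3 ± 60.4 FPKM at low altitude and 179 ± 26.9 at high altitude (limma, Benjamini-Hochberg adjusted p = 0.694). CASQ1, the calcium store protein of fast fibres, was at 1669 ± 98.1 and 1579.6 ± 458 (0.909), and MYH13, a very fast myosin known from eye muscles, at 147 ± 22.3 and 136 ± 60.1 (0.889), in the same order and test. MYH13 lies among similar myosin genes, so its reads are uncertain.

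PVALB encodes parvalbumin, a calcium buffer of the fastest fibres. It had 1.84, 45.4 and 34.3 FPKM in the low altitude libraries, against 1.15, 396 and 92.4 in the high altitude libraries. Its values spread widely within both groups and overlapped (limma, Benjamini-Hochberg adjusted p = 0.870). High altitude library 2, with the most PVALB, also had the fewest slow transcripts, and high altitude library 1 had the least PVALB and the most slow transcripts. Low altitude library 1 did not follow this order, with little of both. Nor did high altitude library 3, where PVALB and the slow sum, 7167 FPKM, were both above those of every low altitude library.

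Of 22 tested sarcomere genes that fibre types share, none passed, 14 had estimates above 0, and the median log2 fold change was 0.051. MYOM2, an M-band protein that is most abundant in fast fibres, was at 299.7 ± 17.4 FPKM at low altitude and 239 ± 14.998 at high altitude without overlap (0.33 on the log2 scale, limma, Benjamini-Hochberg adjusted p = 0.506). NEB, the ruler of the thin filament, was at 393 ± 15.8 and 338 ± 15.2, also without overlap (0.22, adjusted p = 0.645). TCAP, which caps titin at the Z-disc, was at 776 ± 83.0 and 1149.9 ± 474 (−0.50, adjusted p = 0.626), and UNC45B, a myosin chaperone, at 70.8 ± 15.7 and 53.4 ± 11.4 (0.40, adjusted p = 0.630), from the limma fit above. With MYBPC2, both MYOM2 and NEB were higher in each low altitude library than in each high altitude library, as 11.3% of all tested genes were.

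Of 21 tested regulators of fibre type, none passed, with 10 estimates above 0 and 11 below and a median log2 fold change of −0.028. HDAC4, a deacetylase that holds back MEF2 factors, was at 2.14 ± 0.452 FPKM at low altitude and 1.36 ± 0.187 at high altitude without overlap (0.41, limma, Benjamini-Hochberg adjusted p = 0.476). NFATC1, a calcineurin-driven factor of slow genes, was at 3.90 ± 0.833 and 2.81 ± 0.681 (adjusted p = 0.604). TEAD1 was at 38.1 ± 3.32 and 30.6 ± 5.90 (0.638) and TEAD3 at 4.44 ± 0.882 and 5.46 ± 0.638 (0.671), both of them factors that bind muscle promoters, from that limma fit.

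The 5 genes outside the group whose profile over the 6 libraries was most like the median profile of the 7 members were VPS11, NXT1, RCAN1, DRG1 and MAPKAP1, at mean absolute standardized differences of 0.309, 0.312, 0.324, 0.329 and 0.379, out of 3198 genes with a symbol and a mean FPKM of at least 5. Each had higher values in high altitude libraries 1 and 2 than in high altitude library 3, as had the median profile by which they were chosen. Not all members follow that profile: MYBPC1 and MYOZ1 were lower in high altitude library 2 than in high altitude library 3. Standardized profiles also leave out how large the variation of a gene is. Among them RCAN1, an inhibitor of calcineurin, was at 9.35, 16.3 and 12.0 FPKM in the low altitude libraries, against 22.2, 17.2 and 8.04 in the high altitude libraries.

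Summed markers of other cells overlapped between the groups, except those of developing or regenerating fibres. Summed FPKM was 16.7 to 26.2 at low and 16.5 to 34.5 at high altitude for 3 adipocyte markers of 6 listed, 35.2 to 49.8 and 28.6 to 48.2 for 3 endothelial markers of 6, 25.9 to 65.6 and 31.7 to 49.1 for 3 macrophage markers of 6, and 57.4 to 117 and 57.0 to 163 for 2 erythroid markers of 3. Within the endothelial list KDR, a receptor of vessel growth factor, was at 2.87 ± 1.62 FPKM at low altitude and 6.88 ± 1.02 at high altitude without overlap (limma, Benjamini-Hochberg adjusted p = 0.303). The summed FPKM was 688 to 1067.5 and 246 to 958.5 for 5 fibroblast markers of 6. For 6 smooth muscle and pericyte markers of 7 it was 1496 to 1793 and 1025 to 2963, most of it DES, which muscle fibres make as well. For 4 heart markers of 6 it was 455 to 681 and 219.9 to 1481, nearly all MYH6, whose sequence is close to that of the slow myosin MYH7, and MYH7 matched no row. For developing or regenerating fibres 3 of 5 markers summed to 2453 to 3115 at low altitude and 1498.5 to 1702 at high altitude without overlap. Nearly all of it was MYH8, the perinatal myosin, whose reads are uncertain beside its neighbours. MYH8 had a log2 fold change of 0.75 (limma, unadjusted p = 0.00125, Benjamini-Hochberg adjusted p = 0.164). Of the 3 markers 0 passed, MYH8 alone did not overlap, and 1 had an estimate below 0. The sum of these markers and MYBPC2 were both higher in each low altitude library than in each high altitude library. So were 11.3% of all tested genes. Within the groups the order differed. Low altitude library 1 had the largest sum, 3115, but the least MYBPC2 of its group, 1482 FPKM. High altitude library 2 had the smallest sum, 1498.5, but the most MYBPC2 of its group, 1296 FPKM. The part of these markers in the difference of MYBPC2 was not tested.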

How the data were processed

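Per the labels, muscle was frozen in liquid nitrogen, RNA was extracted with TRIzol and dUTP strand-specific libraries were made. The authors deposited FPKM values, 1 column per library, matched to animals by title. TopHat2 2.0.11 and Cufflinks 2.2.1 are named in the submitters' processing notes; build and annotation are not stated, and no coordinates are printed. Without counts, neither a count model nor a counting interval was possible.

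Symbols came from a table of Ensembl IDs, which named 11804 of 25322 genes and 6719 of the tested ones. The 10005 genes that reached an FPKM of 1 in 3 or more of 6 libraries were tested as log2(FPKM + 1), a pseudocount that understates changes of low genes, with limma 3.58.1 in R 4.3.3, with a mean trend. Tests were two-sided, p-values were adjusted over these genes by Benjamini-Hochberg, and the threshold was 0.05. Folds with intervals are 2 to the power of the fitted log2 change, and 1.33-fold is a ratio of mean FPKM. The fit was tested on simulated data. The members and the lists were chosen with earlier results of these data known. The genes named are the members, their slow counterparts, up to 4 genes of each related list by unadjusted p, and the 5 genes of most similar profile. Same-numbered animals did not deviate together (correlations of −0.015, 0.095 and −0.141 over genes), so no pairing was used. Figures were drawn with matplotlib 3.10.9. The values of 1 regulator of fibre type are not reported here.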

Additional observations from a re-analysis of the deposited data

How the results depend on the processing

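Of the 126 fold changes of single members under 18 alternatives, 117 kept their direction, 9 turned it and 0 passed the threshold, and the number of members called was 0 throughout, 0 to 0 when each library was left out. Estimates that turned were 0.095 for MYL1 and 0.075 for MYL11 with quantile normalization, −0.018 for TPM1 with median-of-ratios scaling, and 0.0071 and 0.31 for MYBPC1 with rescaling to a common total and with array weights. Leaving out each library gave −0.082 to 0.11 for TPM1 and −0.57 to 0.47 for MYBPC1, turning TPM1 without low altitude library 3 (−0.013) and high altitude library 3 (−0.082) and MYBPC1 without low altitude library 3 (0.035) and high altitude library 1 (0.47). The fast minus slow differences ranged over 0.57 to 1.15 for MYL1 and MYL3, 0.29 to 1.60 for TNNC2 and TNNC1 and −0.019 to 1.08 for MYBPC2 and MYBPC1, where the value below 0 came without high altitude library 1. The cause was not tested. The count over all genes was 6 with no filter, 9 after median-of-ratios scaling, 10 after quantile normalization, 38 with array weights and 4 to 21 without single libraries (6 without low altitude library 1, 4 without low altitude library 3, 11 without high altitude library 2 and 4 without high altitude library 3). Its split was 16 higher and 7 lower as deposited, against 26 and 6 with rescaling to a common total. With the replicate number as a replicate block 0 members and 19 genes were called. MYBPC2 stayed at 0.42 there (limma, Benjamini-Hochberg adjusted p = 0.570). No low altitude library deviated most like the high altitude library of its own number. Of the high altitude libraries, only library 2 deviated most like its own number. With 3 animals a group, differences as small as those of most members cannot be told from 0.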
